A study of Homo sapiens with 6 samples.

Results

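The insulin-like growth factor (IGF) system genes described here are the 7 IGF binding protein genes (IGFBP1 to IGFBP7), the ligand gene IGF1 and the receptor gene IGF1R. These 9 genes were taken from a written list by gene symbol, out of 58336 genes in the tables. Their levels were measured by RNA-seq in clones of the KGN line, which was set up from a human granulosa cell tumour. FOXL2 encodes a forkhead factor of the granulosa cells of the ovary, and KGN is heterozygous for its C134W change. The FOXL2 WT/C134W group holds the clones 3.11 and 44b and a library named 3.11-44b. The FOXL2 WT/WT group holds the clones 44a and 4.72 and a library named 4.72-44a, all from cells in which CRISPR/Cas9 had been used to revert C134W. Cells of all 6 libraries had been transfected, with what is not described, and were harvested 30 h later. No editing is recorded for the WT/C134W libraries, so genotype and editing cannot be told apart.

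IGF1 and IGF2 act through IGF1R, a receptor tyrosine kinase that signals to PI3 kinase and AKT. IGFBP1 to IGFBP6 bind IGFs with high affinity in the extracellular fluid and, depending on the protein and the tissue, hold them away from the receptor or carry them to it. IGFBP7 is a more distant relative that binds IGFs weakly and is found in the matrix around vessels. In the ovary IGFs act with follicle-stimulating hormone on granulosa cells, and IGFBP4 and IGFBP5 are known in the rat as products of granulosa cells in follicles that stop growing. Proteases, among them PAPPA, cut binding proteins and set IGFs free.

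Genotypes were compared over the 4 single clones, 2 on each side, because the other 2 names join those of the clones without a statement of what they hold. Each clone gave 1 library and separate cultures are not named, so p-values rest on the spread between the libraries of these clones only. Clone, culture and library preparation cannot be told apart in this spread. The fits also draw each gene's spread towards that of other genes. In bulk RNA, fewer cells of a type and less RNA per cell cannot be told apart. Depth was between 35332721 and 46613071 expected counts (RSEM's estimated reads) per library, at which 3 counts equal 0.0661 to 0.0783 CPM (normalised counts scaled to library size). FOXL2 had 9.31 and 10.1 CPM in the WT/C134W clones, against 7.41 and 4.83 CPM in the WT/WT clones, which does not show the allele. Of 12 granulosa markers, 6 reached 1 TPM (a level per transcript length, scaled to the same total in each library) in some library. FSHR, AMHR2, WT1 and GATA4 were at 0 in all 6 libraries and CYP19A1 was at most 0.60 TPM, so several defining markers of the labelled cell type were absent. The granulosa list summed to 181 to 211 TPM in the 3 WT/C134W libraries and 216 to 241 TPM in the 3 WT/WT libraries, without overlap. Its largest term was CDH2, with 89.0 to 109 TPM in WT/C134W and 112 to 126 TPM in WT/WT. Of the 6 markers, CDH2, INHBA and NR5A1 had lower TPM in WT/C134W without overlap. STAR was higher there without overlap, and FOXL2 and AMH overlapped, so the sum does not stand for every marker. The part of these markers in the IGFBP5 and IGF1R values was not tested. Markers of leukocytes (3 genes, CD3E at 0) summed to 0.49 to 1.00 TPM in WT/C134W and 0.42 to 0.77 TPM in WT/WT. Those of endothelium (3 genes, CDH5 at 0) summed to 0.47 to 1.01 TPM in WT/C134W and 0.16 to 1.90 TPM in WT/WT. Those of epithelium (3 genes, none at 0 throughout) summed to 0.27 to 4.30 TPM in WT/C134W and 0.18 to 3.28 TPM in WT/WT.

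IGFBP5 and IGF1R were the 2 of these genes whose levels did not overlap between the single clones of the 2 genotypes, out of 7 tested, beside 39.6% of all genes tested. IGFBP5 was about 2.11-fold higher and IGF1R about 1.97-fold lower in WT/C134W, and neither passed the test over all genes. IGFBP2 differed 14.3-fold between the 2 WT/WT clones. IGFBP3, IGFBP4, IGFBP6 and IGFBP7 were abundant, with overlapping genotypes, while IGFBP1 and IGF1 were at or near 0.

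**Figure D1:**
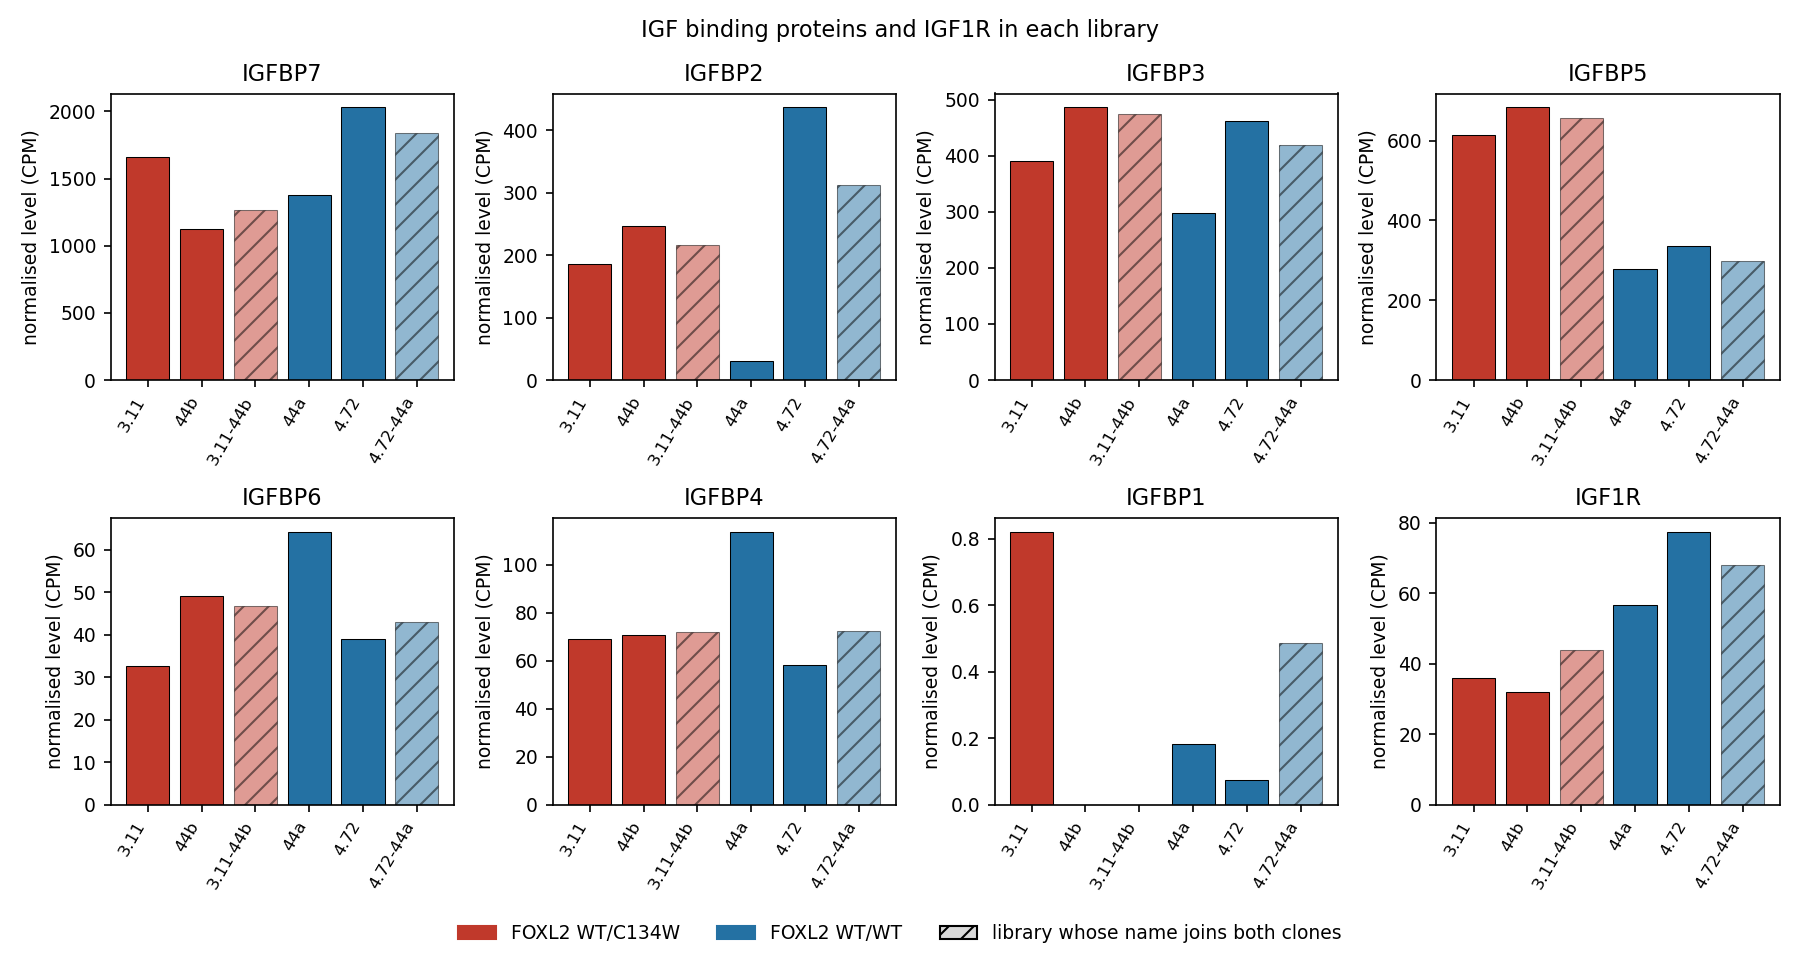
Normalised level (CPM, linear axis from 0, a scale per panel) of 8 of the 9 genes in each library, WT/C134W in red and WT/WT in blue, with hatched bars for the libraries whose names join 2 clones. IGFBP5 stands at 615 to 684 CPM in WT/C134W and 279 to 336 CPM in WT/WT, whereas IGFBP2 has its lowest and highest bars within WT/WT.

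The results turn mainly on IGFBP5, IGFBP2 and IGF1R, so the promoter windows of these genes are shown, with 250 bases before and 50 bases after the RefSeq start. IGFBP5 and IGFBP2 are neighbours on chromosome 2, with 7669 bases between their 3′ ends. Sequences are from RefSeq (GRCh38.p14), written 5′ to 3′ on the gene's strand. The windows are chr2:216695500-216695799 (minus strand) for IGFBP5, chr2:216633170-216633469 (plus strand) for IGFBP2 and chr15:98648289-98648588 (plus strand) for IGF1R. Capitals mark 4 motifs, searched on both strands: the core of forkhead sites TAAACA, the SMAD-binding element CAGAC, the core promoter box TATAAA and the Sp1 box GGGCGG.
IGFBP5: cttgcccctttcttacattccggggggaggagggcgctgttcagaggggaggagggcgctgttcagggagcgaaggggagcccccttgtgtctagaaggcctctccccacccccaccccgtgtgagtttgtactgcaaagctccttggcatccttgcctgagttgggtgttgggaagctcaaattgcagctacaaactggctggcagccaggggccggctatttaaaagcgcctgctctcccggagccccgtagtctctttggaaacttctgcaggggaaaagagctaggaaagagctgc
IGFBP2: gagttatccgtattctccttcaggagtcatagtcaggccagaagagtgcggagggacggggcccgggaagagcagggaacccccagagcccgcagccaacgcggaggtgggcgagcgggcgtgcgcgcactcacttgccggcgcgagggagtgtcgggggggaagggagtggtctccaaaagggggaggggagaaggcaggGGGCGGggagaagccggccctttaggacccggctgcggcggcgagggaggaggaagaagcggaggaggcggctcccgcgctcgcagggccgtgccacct
IGF1R: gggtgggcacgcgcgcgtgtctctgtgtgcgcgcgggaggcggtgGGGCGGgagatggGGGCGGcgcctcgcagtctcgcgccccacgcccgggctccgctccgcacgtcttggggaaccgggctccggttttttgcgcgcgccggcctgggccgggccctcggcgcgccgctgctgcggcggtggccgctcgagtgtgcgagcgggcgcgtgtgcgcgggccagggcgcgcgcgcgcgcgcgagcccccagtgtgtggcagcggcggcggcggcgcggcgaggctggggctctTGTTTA
None of the 4 motifs was found in the IGFBP5 window. The IGFBP2 window held 1 Sp1 box, 49 bases before the start. The IGF1R window held 2 Sp1 boxes, and its last 6 bases, TGTTTA, are the forkhead core on the other strand. No matches overlapped in these windows. Of 35116 RefSeq windows of 300 bases, 12.3% held the forkhead core, 45.3% the SMAD-binding element, 11.5% the core promoter box and 45.0% the Sp1 box. GC content was 59.0% for IGFBP5, 70.0% for IGFBP2 and 79.7% for IGF1R.

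On the per-length scale the order of the levels, by the median over 6 libraries, was led by IGFBP7 with 1763 TPM (range 1327 to 2175). IGFBP2 followed with 386 TPM (44.3 to 631), then IGFBP3 with 290 TPM (193 to 343), and the 2 ranges overlapped. IGFBP5 had a median of 119 TPM (64.9 to 173), IGFBP6 of 83.6 TPM (69.4 to 101) and IGFBP4 of 52.1 TPM (38.6 to 76.8). IGFBP5 overlapped with IGFBP6, and IGFBP6 with IGFBP4, across the 6 libraries. The ranges of IGFBP7 and IGFBP2, of IGFBP3 and IGFBP5, and of IGFBP4 and IGF1R did not overlap. IGF1R had a median of 11.6 TPM (8.07 to 15.1). IGFBP1 reached at most 0.86 TPM and IGF1 at most 0.05 TPM.

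IGFBP7 made up most of the IGFBP transcripts counted per length. Its share of the summed IGFBP TPM was 69.8% in 3.11, 55.0% in 44b and 60.2% in 3.11-44b, against 75.8% in 44a, 66.2% in 4.72 and 69.0% in 4.72-44a. The summed level itself was 2934, 2415 and 2515 TPM in 3.11, 44b and 3.11-44b, and 1982, 3287 and 2914 TPM in 44a, 4.72 and 4.72-44a, so the genotypes overlapped. The TPM share of IGFBP5 did not overlap between genotypes over all 6 libraries, whereas those of the other 6 binding proteins did. Its share was 5.55%, 7.18% and 6.58% in 3.11, 44b and 3.11-44b, against 3.27%, 2.30% and 2.35% in 44a, 4.72 and 4.72-44a. The share of IGFBP2 was 10.8% in 3.11 and 17.5% in 44b, and 2.24% in 44a and 19.2% in 4.72. In shares of summed expected counts, which follow transcript length, IGFBP7 did not overlap either, with 56.2%, 42.2% and 46.4% in 3.11, 44b and 3.11-44b, against 63.7%, 60.4% and 61.6% in 44a, 4.72 and 4.72-44a. No test was run on the shares.

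**Figure D2:**
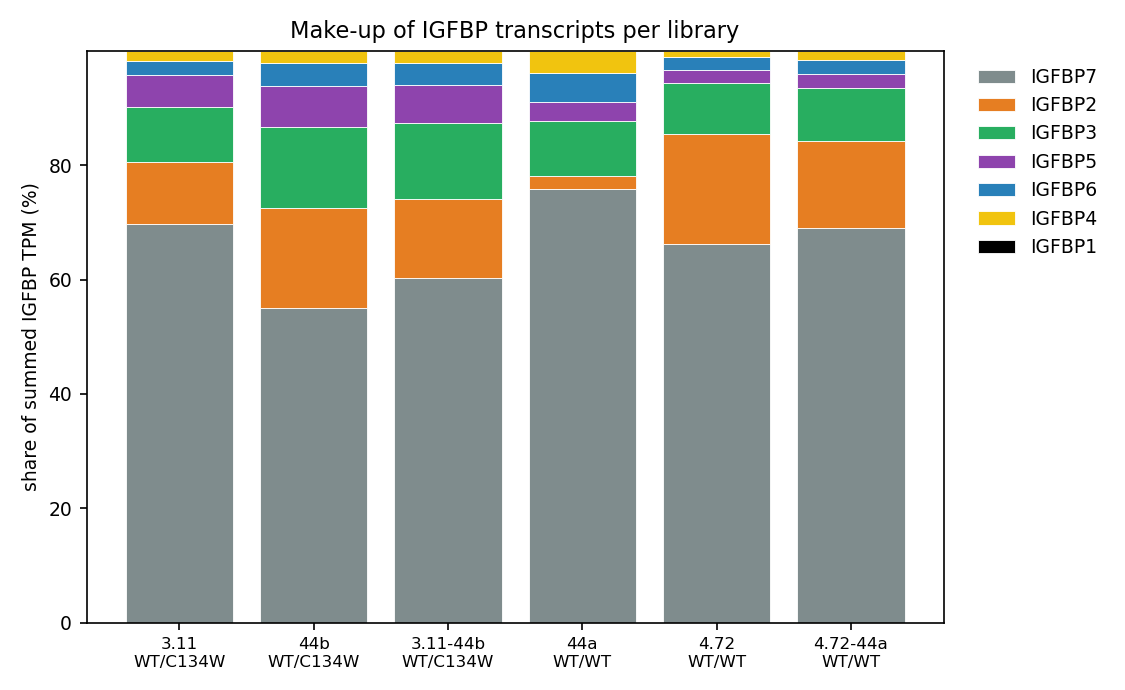
Share of each binding protein in the summed IGFBP TPM (%, stacked from 0) for the 3 WT/C134W libraries on the left and the 3 WT/WT libraries on the right. IGFBP7 takes 55.0% to 75.8%, IGFBP5 is wider in the WT/C134W bars, and the IGFBP2 band narrows to 2.24% in 44a.

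Over all genes, edgeR's quasi-likelihood test called 0 of 16416 at a Benjamini-Hochberg adjusted p under 0.05 (0.0%), and 0 of the 7 genes of the list that passed the low-count filter. Without adjustment, 1243 genes had a p under 0.05 in edgeR's test (7.57%), IGFBP5 and IGF1R among them. Limma voom called 0 genes as well, while DESeq2 called 277 genes (1.83% of 15143), 2 of them from the list, IGFBP5 and IGF1R. The same 2 genes were called by edgeR with all 6 libraries, which takes the joined names as further replicates and where 3.18% of 16046 genes were called, and without a low-count filter, where 2.73% of 24301 were. None of the list was among the 0.0305% of genes called with 44a paired with 44b and 4.72 with 3.11. The same held for the 0.00635% called by limma on log2(TPM + 0.1). The CPM of the single clones did not overlap between genotypes for 39.6% of all genes, and for 2 of the 7 tested here. IGFBP5 lay higher (19.9% of all genes did) and IGF1R lower (19.7%) in WT/C134W. Over all 6 libraries 25.9% of genes did not overlap, IGFBP5 and IGF1R again among them. The median size of the log2 fold change was 0.30 over these 7 genes and 0.29 over all genes tested.

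IGFBP5 encodes a secreted protein that binds IGFs and matrix. It lies on chromosome 2, 216672105 to 216695525 on the minus strand (ENSG00000115461, GRCh38). Its level was 615 CPM in 3.11 and 684 CPM in 44b, against 279 CPM in 44a and 336 CPM in 4.72. The joined names gave 658 CPM (3.11-44b) and 298 CPM (4.72-44a), so every WT/C134W library lay above every WT/WT library. The means were 649.7 ± 48.5 CPM in WT/C134W and 308 ± 40.5 CPM in WT/WT (SD, n = 2 clones each). Between genotypes the log2 fold change was 1.08 ± 0.18 (SE from the F statistic, positive where WT/C134W is higher), with an adjusted p of 0.480 in edgeR's test. Taken clone by clone, the 4 differences between a WT/C134W and a WT/WT clone ran from 0.87 to 1.29 in log2 CPM. The 2 clones of a genotype differed by -0.15 (3.11 minus 44b) and 0.27 (4.72 minus 44a). Per length, IGFBP5 had 163 and 173 TPM in 3.11 and 44b, against 64.9 and 75.5 TPM in 44a and 4.72. DESeq2's adjusted p was 2.25e-06, and over edgeR and the alternatives the adjusted p ran from 2.25e-06 to 0.999, with the highest value when 3.11 was left out.

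IGFBP2, the neighbour of IGFBP5, encodes a secreted binding protein with a preference for IGF2. It had 186 CPM in 3.11 and 247 CPM in 44b, against 30.6 CPM in 44a and 437 CPM in 4.72. The clone 44a was low and 4.72 high, and both WT/C134W clones lay between them. The joined names gave 217 CPM for 3.11-44b and 312 CPM for 4.72-44a. On the log2(CPM + 0.1) scale, 1.06% of the 16416 genes tested were at least as far apart as IGFBP2 between 44a and 4.72. The log2 fold change between genotypes was -0.12 ± 1.31 (SE, adjusted p = 0.999 in edgeR's test). It was 2.82 without 4.72, 0.07 without 3.11, -0.35 without 44b and -1.03 without 44a, so its direction was not stable. Of the 16 alternative settings, 8 gave a positive and 8 a negative value.

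IGFBP3, the main IGF carrier of the blood, had 390 CPM in 3.11 and 487 CPM in 44b, against 298 CPM in 44a and 462 CPM in 4.72. The genotypes overlapped, and the log2 fold change was 0.21 ± 0.26 (SE, adjusted p = 0.917 in edgeR's test). Without 44a it was -0.09. IGFBP1, the liver and decidual binding protein that lies next to IGFBP3 on chromosome 7, was close to absent. Its expected count was 34 in 3.11 and 0 in both 44b and 3.11-44b, against 8 in 44a, 3 in 4.72 and 19 in 4.72-44a. It did not pass the low-count filter and was not tested. A count of 0 allows up to 0.0661 CPM in 44b, and this covers counting error only.

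IGFBP4, which inhibits IGF action and is the main substrate of PAPPA, had 68.8 CPM in 3.11 and 70.5 CPM in 44b, against 114 CPM in 44a and 58.3 CPM in 4.72. The WT/C134W clones lay between the WT/WT clones, as for IGFBP2, but with 44a as the high clone. IGFBP6, a binding protein that prefers IGF2, was likewise highest in 44a, with 32.7 CPM in 3.11 and 49.2 CPM in 44b, against 64.3 CPM in 44a and 39.0 CPM in 4.72. The log2 fold changes were -0.30 ± 0.32 for IGFBP4 and -0.33 ± 0.31 for IGFBP6 (SE). Their adjusted p in edgeR's test was 0.895 and 0.876. Both values changed sign without 44a, to 0.24 for IGFBP4 and 0.05 for IGFBP6.

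IGFBP7 was the most abundant gene of the list on both scales. It had 1658 CPM in 3.11 and 1121 CPM in 44b, against 1379 CPM in 44a and 2032 CPM in 4.72. Within each genotype 1 clone lay higher by a like amount, 0.56 in log2 CPM for 3.11 over 44b and 0.56 for 4.72 over 44a. The log2 fold change between genotypes was -0.30 ± 0.29 (SE, adjusted p = 0.885 in edgeR's test), and it was 0.01 without 4.72. An antisense gene, IGFBP7-AS1, overlaps IGFBP7 and had 16.0 to 19.0 expected counts in the WT/C134W libraries and 19.0 to 45.1 in the WT/WT libraries. POLR2B overlaps the other end and had 3797 to 4152 expected counts in the WT/C134W libraries and 2685 to 3106 in the WT/WT libraries. How strand was used in counting is not given in the sources used here.

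**Figure D3:**
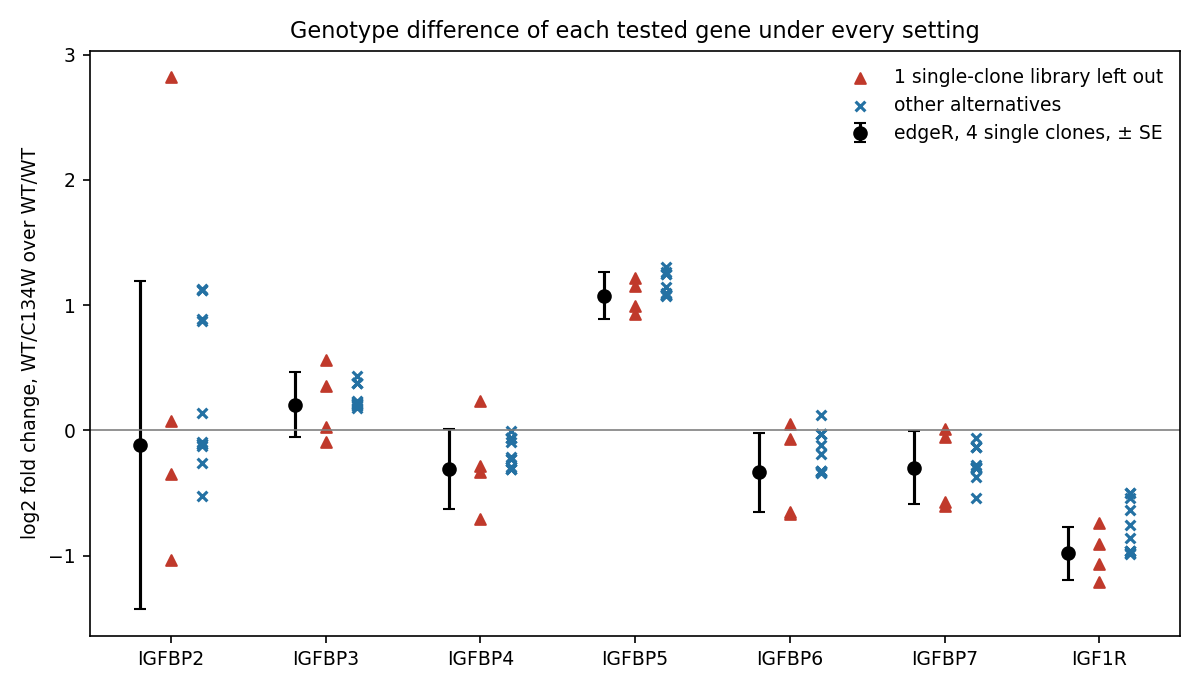
Log2 fold change (positive where WT/C134W is higher) of the 7 tested genes, with the edgeR value over 4 single clones and its SE (black), the values with 1 clone left out (red triangles) and with other settings (blue crosses). IGFBP5 stays above 0 and IGF1R below 0 in all 16 alternatives, whereas IGFBP2 spans -1.03 to 2.82. The single clones of IGFBP5 and IGF1R do not overlap between genotypes, so their signs were largely set beforehand.

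The ligand IGF1 was listed at 0 expected counts in 3.11 and 44b and in all 3 WT/WT libraries. In 3.11-44b it had 8.67 expected counts. No fold change was computed. IGF2, the other ligand, was listed at 0 in all 6 libraries under both gene IDs that carry its symbol. INS and IGFBPL1 were listed at 0 too, and IGFALS, which holds IGFs and binding proteins in a complex in the blood, reached at most 0.15 TPM. Of these 4 further ligand and carrier genes, 0 passed the low-count filter.

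The receptor gene IGF1R lies on chromosome 15, 98648539 to 98964530 on the plus strand (ENSG00000140443, GRCh38). It had 35.9 CPM in 3.11 and 32.0 CPM in 44b, against 56.6 CPM in 44a and 77.5 CPM in 4.72. The joined names gave 43.8 CPM (3.11-44b) and 68.1 CPM (4.72-44a), so all WT/C134W libraries lay below all WT/WT libraries. The means were 34.0 ± 2.78 CPM in WT/C134W and 67.0 ± 14.8 CPM in WT/WT (SD, n = 2 clones each). The log2 fold change was -0.98 ± 0.21 (SE), with an adjusted p of 0.563 in edgeR's test. The 4 differences between clones of the 2 genotypes ran from -1.28 to -0.65 in log2 CPM. DESeq2's adjusted p was 0.0123, and the range over edgeR and the alternatives was 0.000428 to 0.999. The 3 edgeR or DESeq2 settings that called IGF1R also called IGFBP5, and called between 1.83% and 3.18% of all genes.

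Per length the difference in IGF1R was smaller. It had 10.3 and 8.07 TPM in 3.11 and 44b, against 11.7 and 15.1 TPM in 44a and 4.72. The library 3.11-44b reached 11.6 TPM, close to the 11.7 TPM of 44a. On the log2(TPM + 1) scale the fold change was -0.50 ± 0.27 (SE, adjusted p = 0.641 in limma's test). The effective length, RSEM's mean transcript length of a gene weighted by its estimated isoforms and less the fragment length, was 5398 and 5907 bases in 3.11 and 44b, against 6645 and 6905 bases in 44a and 4.72. The joined names gave 5712 bases (3.11-44b) and 6706 bases (4.72-44a). The 2 scales also differed for genes of nearly equal effective length. Between the means of the single clones, IGFBP4 stood at -0.30 in log2 CPM and -0.15 in log2 TPM, and IGFBP7 at -0.30 and -0.12. IGF1R itself stood at -0.98 in log2 CPM and -0.54 in log2 TPM between these means. TPM divides by effective length, whose log2 ratio for IGF1R was -0.26. The cause of this length difference was not tested. A difference in effective length of at least this size was seen for 16.8% of the genes tested, and 6.47% had a lower length in WT/C134W with no overlap over the 6 libraries. GENCODE lists 19 transcripts of IGF1R, 6 of them protein-coding, and transcripts were not counted separately here. The annotated genes that overlap IGF1R on the opposite strand had at most 1.03 expected counts.

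**Figure D4:**
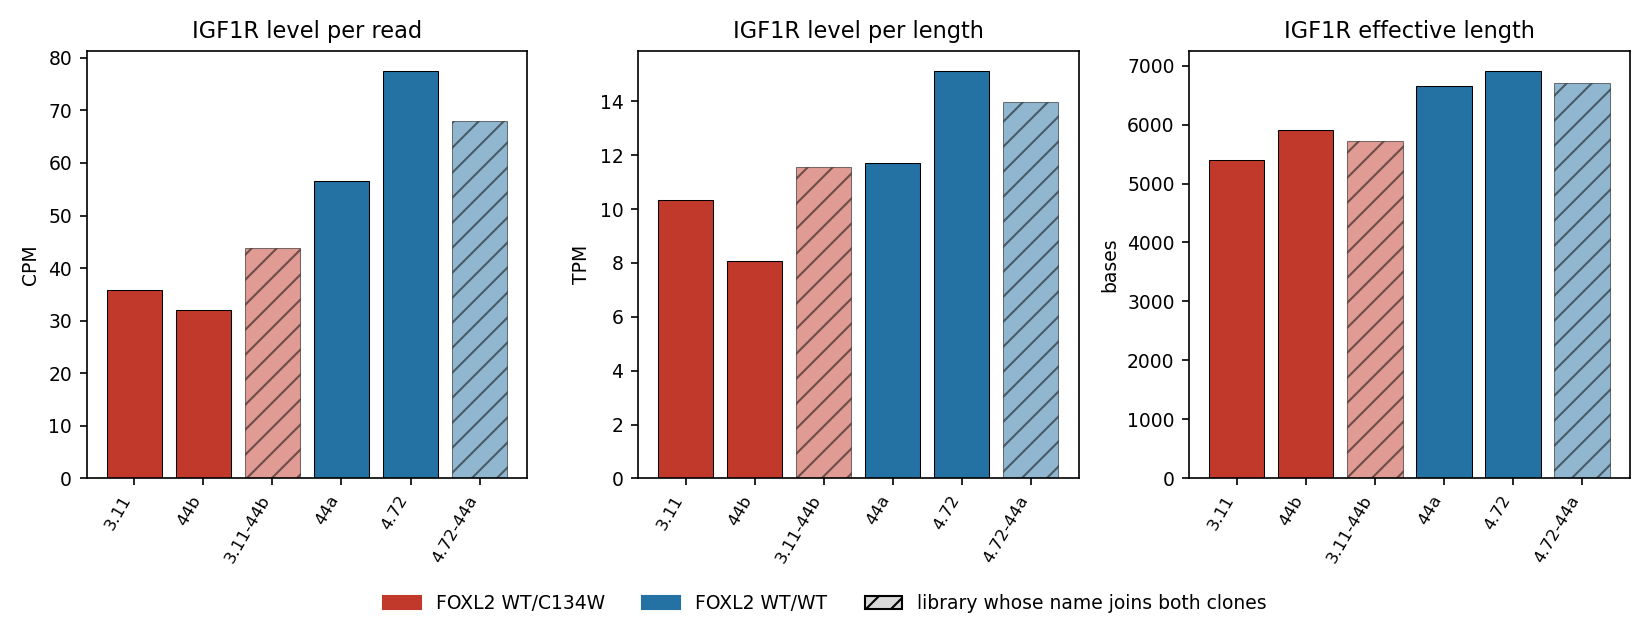
IGF1R in each library as CPM, as TPM and as effective length in bases (linear axes from 0), WT/C134W in red and WT/WT in blue, hatched for joined names. The gap between genotypes is wider in CPM (-0.98 in log2) than in TPM (-0.54 in log2, between the means of the single clones), and the effective length is lower in the 3 WT/C134W libraries. The 2 scales also differ for IGFBP4, of nearly equal effective length (-0.30 in log2 CPM, -0.15 in log2 TPM).

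Of 34 other genes of the IGF system in 5 lists, 27 were tested and 0 were called by edgeR, 19 with negative and 8 with positive log2 fold changes. Their median was -0.25, beside 0.01 over all genes tested. Some of the signs depend on the scale. PAPPA2, HTRA1, IRS1, PDPK1 and AKT2, negative in edgeR's fit, had higher mean TPM in the WT/C134W than in the WT/WT clones (11.0 and 9.65 TPM for IRS1). Their edgeR values were small, from -0.17 for HTRA1 to -0.07 for AKT2, apart from PAPPA2 at -0.40 ± 1.19 (SE). IGFBP4 and IGFBP7, of nearly equal effective length, also moved up between the scales, from -0.30 in log2 CPM to -0.15 and -0.12 in log2 TPM. No gene with a positive value changed sign per length. A median over all genes was not taken per length. No overlap between the single clones was seen for 15 of the 27, 12 lower and 3 higher in WT/C134W, beside 39.6% of all genes. Of 4 receptor genes, 3 were tested. INSR, the insulin receptor, which also pairs with IGF1R, had 3.89 and 7.28 CPM in 3.11 and 44b, against 13.6 and 8.28 CPM in 44a and 4.72. Its log2 fold change was -0.97 ± 0.44 (SE, adjusted p = 0.695 in edgeR's test). Per length INSR overlapped between genotypes, with 4.18 and 2.84 TPM in 3.11 and 44b, against 5.72 and 2.27 TPM in 44a and 4.72. IGF2R, which clears IGF2, had 185 and 158 CPM in WT/C134W clones and 158 and 160 CPM in WT/WT clones. TMEM219, described as a receptor of IGFBP3, had 22.9 and 30.0 CPM in WT/C134W clones, against 35.6 and 39.4 CPM in WT/WT clones.

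Of 7 proteases and inhibitors 6 were tested, 5 with negative values. PAPPA, a protease of IGFBP4 and IGFBP5, had 27.0 and 34.5 CPM in 3.11 and 44b, against 37.7 and 81.8 CPM in 44a and 4.72, and a log2 fold change of -0.96 ± 0.40 (SE, adjusted p = 0.679 in edgeR's test). STC2, a secreted inhibitor of PAPPA, had 88.5 and 119 CPM in 3.11 and 44b, against 252 and 128 CPM in 44a and 4.72, a log2 fold change of -0.87 ± 0.36 (SE, adjusted p = 0.678 in edgeR's test). PAPPA was highest in 4.72 and STC2 in 44a. ADAM12, a protease of IGFBP3 and IGFBP5, had 96.9 and 120 CPM in 3.11 and 44b, against 137 and 145 CPM in 44a and 4.72.

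Of 16 adaptors and kinases 15 were tested, 10 with negative and 5 with positive values and a median log2 fold change of -0.08. The 2 smallest unadjusted p belonged to GRB10, an adaptor that restrains the receptors, and PIK3R2, a regulatory subunit of PI3 kinase. Their log2 fold changes were -0.42 ± 0.17 and -0.36 ± 0.16 (SE). GRB10 had 91.2 and 77.6 CPM in 3.11 and 44b, against 121 and 105 CPM in 44a and 4.72. All 3 FOXO factors, which AKT phosphorylates, were tested. FOXO3 had 58.9 and 64.3 CPM in 3.11 and 44b, against 79.2 and 81.3 CPM in 44a and 4.72. FOXO4 had 5.56 and 2.58 CPM in 3.11 and 44b, against 1.04 and 1.80 CPM in 44a and 4.72. FOXO1 was low and spread, with 1.38 and 3.70 CPM in WT/C134W clones and 8.70 and 0.89 CPM in WT/WT clones.

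**Figure D5:**
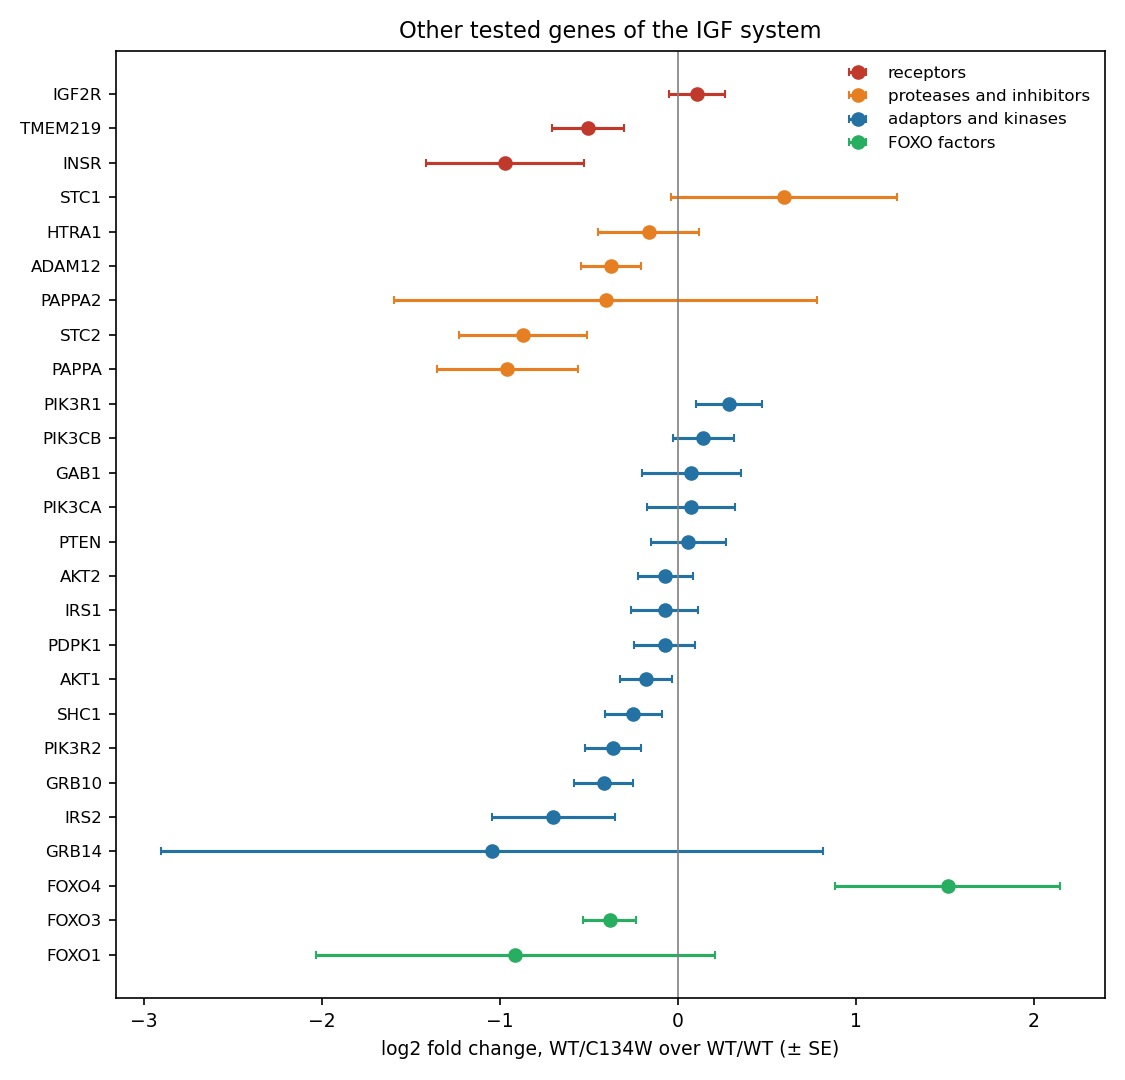
Log2 fold change (positive where WT/C134W is higher) with SE from edgeR over 4 single clones, for 26 of the 27 tested genes of the receptor, protease, adaptor and FOXO lists. Of the 26 points 18 lie below 0, and the widest bars belong to GRB14, PAPPA2 and FOXO1.

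The genes most like IGFBP7, IGFBP5 and IGFBP3, the 3 members with the highest CPM, across the 4 single clones were sought among 11124 protein-coding genes, by the root mean square difference of log2 CPM centred on each gene's mean. For IGFBP7 these were FCHSD2 (0.03) and TKFC (0.04). For IGFBP5 they were PITPNC1 (0.05) and EPHB2 (0.06), an ephrin receptor with 89.2 and 109 CPM in 3.11 and 44b, against 42.0 and 48.2 CPM in 44a and 4.72. For IGFBP3 they were ZNF205 (0.02) and SLC39A8 (0.03). With 4 libraries, 24, 5 and 55 genes lay within 0.1 of IGFBP7, IGFBP5 and IGFBP3. The likeness of PITPNC1 to IGFBP5 did not extend to the joined names, where PITPNC1 had 2.74 CPM in 3.11-44b and 3.95 CPM in 4.72-44a.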

How the data were processed

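RNA of 6 KGN libraries, 3 per FOXL2 genotype, was analysed from the deposited gene tables. The kit selects mRNA and keeps strand, per the labels' protocols. Per the file headers, each table holds expected counts (unscaled reads per gene estimated by RSEM), TPM (scaled by effective length and to the same total per library), FPKM (not used here) and gene lengths. Among the tools in the submitters' processing notes are DESeq2 1.26.0, RSEM 1.3.1 and STAR 2.7.6a, along with GRCm38, a mouse build, while the 58336 IDs are of human genes. Not given in the sources used here are the human build, the annotation and the strand setting. Symbols and coordinates came from GENCODE 29 (GRCh38), in which 58216 IDs were found.

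The 4 single clones were compared with the quasi-likelihood F test of edgeR 4.0.16 in R 4.3.3 (robust glmQLFit), after rounding, filterByExpr and TMM scaling, with Benjamini-Hochberg adjustment over all 16416 genes and a threshold of 0.05. CPM is TMM-normalised over 6 libraries. Each SE is the ratio of the fold change, as log2 and without sign, to the square root of F. An exact permutation test of 2 against 2 cannot go below 0.333 and was not used. Alternatives were all 6 libraries, the joined names alone, DESeq2 1.42.0, limma 3.58.1 voom, other scalings and filters, each clone left out, a block of clones, and limma on log2(TPM + 1) or log2(TPM + 0.1). The genes, lists and tests were chosen with earlier results of these data known. All members were named, with IGF2, INSR, IGF2R, PAPPA and STC2, and from each list up to 3 tested genes with the smallest unadjusted p, of which 1 is not reported here. The 2 genes most like each of the 3 members with the highest CPM were taken among protein-coding genes of at least 2 CPM outside the Y chromosome. Promoter windows were found for 7 of the 9 members in RefSeq. Where several were listed, the one nearest to GENCODE's principal transcript was used.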

Additional observations from a re-analysis of the deposited data

Results flagged for a closer look

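IGF1 was listed at 0 expected counts in all 4 single clones and in 4.72-44a, and had 8.67 expected counts in 3.11-44b, a library outside the comparison between genotypes. This exceeds the 3 counts that a count of 0 allows. RSEM gave IGF1 an effective length of 7198 bases in that library. HELLPAR, a noncoding RNA gene on the opposite strand that overlaps the end of IGF1, had 161, 56.0 and 94.3 expected counts in 3.11, 44b and 3.11-44b, against 20.0, 24.0 and 72.0 in 44a, 4.72 and 4.72-44a. Its part in the IGF1 value was not tested.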

How the results depend on the processing

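IGFBP5 kept a positive and IGF1R a negative log2 fold change in all 16 alternatives (0.93 to 1.31 and -1.21 to -0.50). The single clones of both genes did not overlap between genotypes, as for 39.6% of all genes tested, so these signs were largely set beforehand. Most alternatives use the same clones, and the share of all genes that keep their sign was not taken. Genes called over the whole table, 0 in edgeR's test, were 511 with all 6 libraries, 277 with DESeq2, 664 without a low-count filter and 1 on log2(TPM + 0.1). The prior degrees of freedom of edgeR were infinite without the filter and 3.71 in the main comparison over the single clones. IGFBP5 and IGF1R, 2 genes, were called with all 6 libraries, with DESeq2 and without the filter, and 2 other IGF system genes, PAPPA and STC2, without the filter. No clone left out gave a call for any gene. The labels give no replicate numbers, and a replicate block that paired 44a with 44b and 4.72 with 3.11 called 5 genes, 0 of them here. IGFBP2 changed sign to 0.88 with this block, 0.89 with voom, 0.14 with library totals, 1.12 on log2(TPM + 1) with and without a filter, and 1.13 on log2(TPM + 0.1). Leaving out 1 clone gave -1.03 to 2.82 for IGFBP2, -0.093 to 0.56 for IGFBP3, -0.71 to 0.24 for IGFBP4, -0.67 to 0.053 for IGFBP6 and -0.60 to 0.011 for IGFBP7. IGFBP6 stood at 0.12 between the joined names. The cause of these changes was not tested. Library totals alone moved the median of all genes to 0.23, and relative to it IGFBP5 was at 1.08 and IGF1R at -0.98. Shares of summed expected counts, which follow transcript length, were 7.78% for IGFBP2, 2.49% for IGFBP4 and 1.48% for IGFBP6 in WT/C134W. For WT/C134W and WT/WT they were 15.8% and 13.7% for IGFBP3, 23.3% and 11.4% for IGFBP5, and 49.2% and 62.0% for IGFBP7. Depth limits IGFBP1, with 0 to 34 expected counts, and IGF1, with 0 to 8.67.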

Other observations

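Where the 2 clones of a genotype were at least 4-fold apart with at least 5 CPM in 1 of them, the place of the library with the joined name between them was taken on the linear CPM scale. The library 3.11-44b lay at a median of 28.1% of the way from 44b to 3.11 over 181 genes (quartiles 16.3% and 38.5%). The library 4.72-44a lay at 69.6% of the way from 44a to 4.72 over 205 genes (quartiles 63.1% and 76.9%), and IGFBP2 at 69.2%. Among binding proteins less far apart, the place in 3.11-44b was -88.1% for IGFBP4, 13.0% for IGFBP3, 14.9% for IGFBP6, 27.4% for IGFBP7, 38.1% for IGFBP5 and 48.7% for IGFBP2. IGFBP4 had 70.5 CPM in 44b, 68.8 CPM in 3.11 and 72.0 CPM in 3.11-44b, clones too close for its place to be read. The other places of binding proteins less than 4-fold apart are uncertain too. For IGFBP5 the ratio of the clones was 0.90 (3.11 over 44b) and 1.21 (4.72 over 44a). In 4.72-44a the place was 32.8% for IGFBP5, 70.4% for IGFBP7, 73.7% for IGFBP3, 74.9% for IGFBP4 and 84.2% for IGFBP6. IGF1R in 3.11-44b, at 43.8 CPM, was above both 3.11 and 44b.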
